A study of Mus musculus with 8 samples.

Results

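Expression of Dppa2, Dppa3, Dppa4, Dppa5a and Fabp3 was followed during JUN-induced pluripotent-somatic transition (PST) under bromodomain inhibitors. These 5 genes were taken by name from the 50600 gene rows of the deposited RNA-seq table, and all 5 were among the 10222 genes that passed the filter on low values (an average over the 8 libraries of 5 TPM or more). They were chosen by their names and by their measured levels in replicate 1 and replicate 2, between which some of them differ, so that difference is described here and carries no test. The design put 8 libraries in 4 groups of 2.

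The cells were OG2 transgenic mouse embryonic stem cells (ESCs), which carry an Oct4 reporter, of a mixed strain (1/2 129SVJ, 3/8 C57B6 and 1/8 CBA), of genotype c-Jun_TetOn_mESC and at passage P12. They grew without feeders, in serum with LIF, PD0325901 and Chir99021, and doxycycline at 2 µg/ml switched on a JUN transgene. Every group received doxycycline, the control with the solvent DMSO and the others with PFI-3, with BI-9564 or with the combination (P+B). The labels give 6 h for doxycycline and compound together, whereas the supplement of the study describes a JUN induction longer than the compound exposure, so the length of induction is not settled here. PFI-3 binds the bromodomain of BRG1 and its relatives, BRG1 being the ATPase of the BAF chromatin remodelers, and BI-9564 binds those of BRD7 and BRD9. The labels give no dose for either compound, alone or in P+B. The groups held no library without doxycycline, so what JUN itself does to the 5 genes was not analysed here. The replicate numbers come from the labels, which do not say whether they stand for separate cultures, so the p-values measure the spread between these libraries, which may be technical. In such bulk RNA, fewer cells that express a gene and less RNA per cell cannot be told apart.

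The Dppa genes were named developmental pluripotency-associated for their expression in early embryos and pluripotent cells. DPPA2 and DPPA4 are small nuclear proteins with a SAP domain that work as a pair on chromatin, keep bivalent promoters free of DNA methylation and help to switch on genes of the 2-cell embryo. DPPA3 (also called Stella or PGC7) is an egg and germ cell protein that protects the maternal genome after fertilization and restrains the methylation factor UHRF1. DPPA5A (ESG1) is an RNA-binding protein with a KH domain that is abundant in ESCs. FABP3, the heart-type fatty acid-binding protein, is a small carrier of fatty acids in the cytoplasm, best known from muscle.

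On GRCm38, the build the submitters name as mm10, Dppa4 (chr16:48283733-48294237) and Dppa2 (chr16:48303908-48319723) lay next to each other on the plus strand, separated by 9670 bases. Dppa3 (chr6:122626410-122630272, plus strand, 4 exons) lay between Gdf3 and Nanog. Dppa5a (chr9:78367052-78368177, minus strand) had 3 exons and a coding sequence of 354 bases, the shortest of the 5 genes. Fabp3 (chr4:130308595-130315463, plus strand) had 4 exons and 399 coding bases. Its exons shared 80 bases with Gm10570 and 81 bases with Zcchc17, which both lie on the minus strand. Gm10570 was at 0 in all 8 libraries, and Zcchc17 ranged from 23 to 46 TPM, and since the counting is not stated to use strand, reads of the shared stretch cannot be told apart.

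The promoter of Fabp3 is shown because it was the only promoter of the 5 genes found in the RefSeq promoter table (GRCm38.p6), and Fabp3 was among the genes that differed most between the replicate numbers. Printed is the part upstream of both the GENCODE and the RefSeq start, chr4:130308488-130308594, plus strand, 5′ to 3′, with CpG dinucleotides in capitals.
Fabp3: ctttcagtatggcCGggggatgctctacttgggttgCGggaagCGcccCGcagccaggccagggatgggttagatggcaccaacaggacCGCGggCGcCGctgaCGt
These 107 bases held 9 CpG dinucleotides. The 250 bases before the RefSeq start held 17, against a median of 6.0 over 32851 promoters, and 76.5% of promoters held fewer. Their GC content was 64.8%, against a median of 52.4%. The AP-1 motif TGANTCA, the letters that JUN dimers bind, was searched on both strands of the 250 bases and had 0 matches, and 6.75% of promoters held it. The cyclic AMP response element TGACGTCA had 0 matches (1.55% of promoters), its shorter form TGACG, contained in it, had 1 match at position −149 from the RefSeq start (17.8% of promoters), and the octamer ATGCAAAT had 0 matches (1.6% of promoters). A match describes letters only, and no match says nothing about binding elsewhere.

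Transcripts of these genes have copies in the genome, which limits how reads can be assigned. An alignment of the annotated transcripts of each gene to all other transcripts (identity of at least 90% over at least 100 bases) found processed pseudogenes for each gene, and those listed in the table stood at 0 or 1 TPM in every library. Gm9788 matched 906 bases of Dppa2 at 99.3% identity, and Fabp3-ps1 matched 402 bases of Fabp3 at 99.3%. Dppa5a had the most copies with 9. Among them were transcripts annotated to the protein-coding gene Pigp, which matched 417 bases at 95.9% identity and ranged from 9 to 23 TPM. Whether reads were exchanged between a gene and its copies was not tested.

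Library sums ran from 991574 to 991897, close to the total that TPM has by construction, so they say nothing about likeness. Between 10285 and 10451 genes per library had at least 5 TPM. Read numbers cannot be recovered from TPM, so depth and counting error are unknown. The ESC markers Pou5f1, Sox2, Nanog, Zfp42, Esrrb and Tdgf1 were all present, with a summed level of 1685 to 2156 TPM in replicate 1 and 1429 to 1951 TPM in replicate 2. Of 6 fibroblast markers, 4 were at 0 in all libraries, and the sum of the list was 2 to 5 TPM in replicate 1 and 0 to 2 TPM in replicate 2. Primitive endoderm markers summed to 3 to 10 TPM, trophectoderm markers to 12 to 20 TPM and mesendoderm markers to 4 to 12 TPM.

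Levels of the 5 genes spanned more than 2 orders of magnitude on the TPM scale, which is per length. Dppa5a was the highest, with 2355 ± 462 TPM (SD, n = 8 libraries), and ranked 44 among the tested genes. Fabp3 followed with 131 ± 73.7 TPM, then Dppa4 with 80.75 ± 4.37 TPM, Dppa2 with 69.5 ± 6.76 TPM and Dppa3 with 15.6 ± 10.4 TPM. Dppa5a exceeded Fabp3 in 8 of 8 libraries, by 12 to 36.3 times. Dppa4 exceeded Dppa2 in 8 of 8 libraries, by 1.03 to 1.45 times, while their ranges over all libraries overlapped. Dppa3 was the lowest in every library. The place of Fabp3 in this order was not fixed: it exceeded Dppa4 in the 4 libraries of replicate 1, by 2.24 to 2.81 times, and lay below it in the 4 libraries of replicate 2, at 0.671 to 0.987 times its level.

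**Figure D1:**
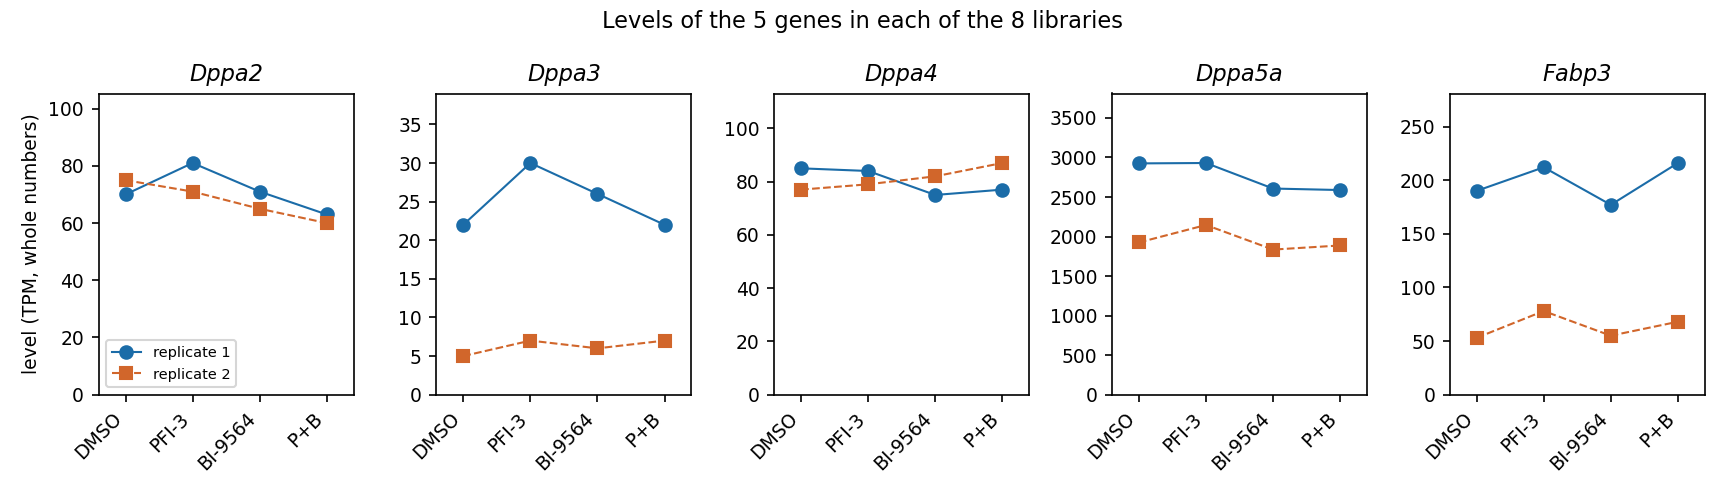
Level of each gene (TPM, vertical axis from 0, a scale of its own in each panel) in the 4 treatments (horizontal axis), with replicate 1 as blue circles and replicate 2 as orange squares joined by lines. For Dppa3, Dppa5a and Fabp3 the 4 libraries of replicate 1 all lie above the 4 of replicate 2, and for Dppa2 and Dppa4 they overlap.

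Of the 5 genes, Dppa3 differed most between the replicate numbers. In replicate 1 it was at 22 TPM under DMSO, at 30 under PFI-3, at 26 under BI-9564 and at 22 under P+B. In replicate 2 it was at 5, 7, 6 and 7 TPM in the same order. All libraries of replicate 1 were thus above all of replicate 2, and the ratio of the means was 4.0, with 3.14 to 4.4 within treatments. The mean difference of replicate 2 and replicate 1 was −1.84 on the scale of log2(TPM + 1), which ranked 7 from the lowest among 10222 genes. Values are whole numbers, so a step of 1 TPM is a large part of the level of Dppa3 in replicate 2.

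Fabp3 showed the same order of replicates. Its level in replicate 1 was 190 TPM under DMSO, 212 under PFI-3, 177 under BI-9564 and 216 under P+B. In replicate 2 the values were 53, 78, 55 and 68 TPM. The ratio of the means was 3.13, with 2.72 to 3.58 within treatments, and the mean log2 difference of −1.64 ranked 14 from the lowest. The ratio of Fabp3 to Dppa3 therefore moved less than either gene, from 6.81 to 11.1 over the 8 libraries.

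Dppa5a was also higher in replicate 1, by less. It was at 2925 TPM under DMSO, 2930 under PFI-3, 2607 under BI-9564 and 2588 under P+B in replicate 1, and at 1925, 2146, 1835 and 1887 TPM in replicate 2. The ratio of the means was 1.42 (1.37 to 1.52 within treatments), and the mean log2 difference of −0.50 ranked 315 from the lowest.

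Dppa2 and Dppa4, the pair of neighbours on chromosome 16, did not separate by replicate. Dppa2 ranged from 63 to 81 TPM in replicate 1 and from 60 to 75 TPM in replicate 2, a ratio of means of 1.05. Dppa4 ranged from 75 to 85 TPM in replicate 1 and from 77 to 87 TPM in replicate 2, a ratio of means of 0.988. For Dppa4 replicate 1 was the higher library with DMSO and PFI-3 and the lower with BI-9564 and P+B.

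Over the 8 libraries, the replicate number took 96.5% of the sum of squares of Dppa3 on the log2 scale, 95.5% for Fabp3 and 89.6% for Dppa5a, against a median of 10.8% over all tested genes. It took 7.59% for Dppa2 and 1.6% for Dppa4. Treatment took 75.4% for Dppa2 and 10.9% for Dppa4, against a median of 54.7% over all tested genes. Treatment has 4 groups and the replicate number has 2 levels, so treatment takes a larger share on average even without any effect. The shares of treatment and of replicate number are thus not comparable. The libraries of the replicate numbers did not overlap for 3 of the 5 genes and for 6.1% of all tested genes, and nothing is read from this count, since the genes were listed for it. Lower values in replicate 2 within all 4 treatments were found for 1310 genes (12.8%), higher ones for 1138 (11.1%). The mean difference was under −1 in 49 genes and over 1 in 43.

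**Figure D2:**
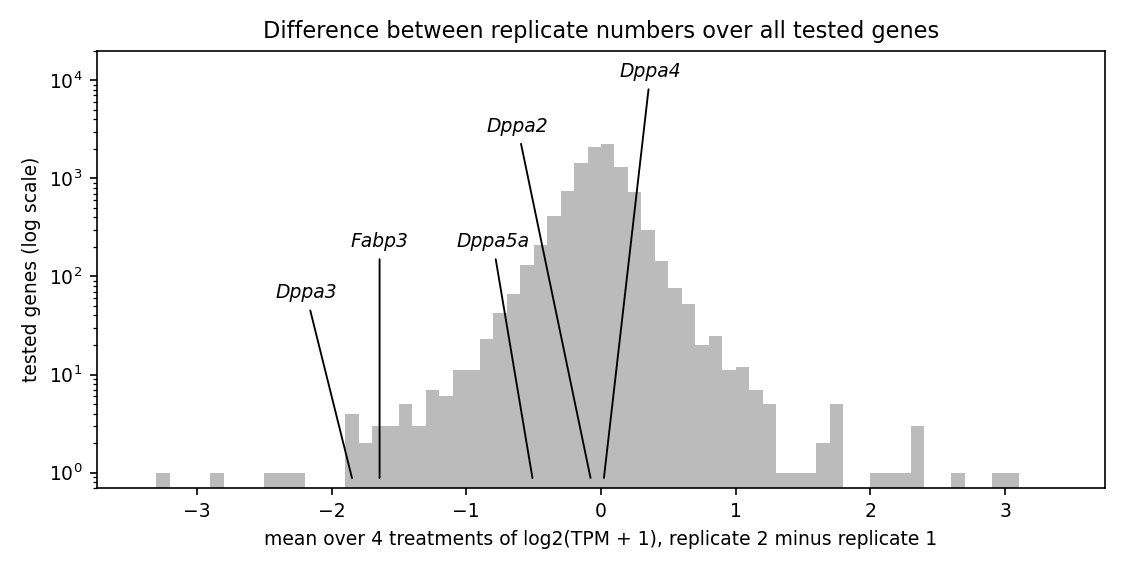
Number of tested genes (vertical axis, log scale) by the mean over 4 treatments of the difference in log2(TPM + 1), replicate 2 minus replicate 1 (horizontal axis), in grey, with lines that mark the 5 genes. Dppa3 at −1.84 and Fabp3 at −1.64 lie in the left tail, Dppa5a at −0.50 on the left slope, and Dppa2 and Dppa4 in the centre.

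Jun moved the other way. Its level, in which the transgene and the cell's own gene cannot be told apart, was 1569 to 2071 TPM in replicate 1 and 2159 to 3011 TPM in replicate 2, higher in replicate 2 in 4 of 4 treatments. It also differed by treatment. In replicate 1 Jun was at 1570 TPM under PFI-3 and 1569 under P+B, against 1970 under DMSO and 2071 under BI-9564. In replicate 2 the values were 2227 and 2159 against 2877 and 3011 TPM. The share of all tested genes that separate this way was not counted, and this difference was not tested. The summed level of the ESC markers moved the same way as Dppa3, Fabp3 and Dppa5a. Their sum was 1927 TPM in replicate 1 and 1760 in replicate 2 under DMSO, 2156 and 1951 under PFI-3, 1685 and 1429 under BI-9564 and 1777 and 1549 under P+B, lower in replicate 2 in 4 of 4 treatments. Of the 6 markers, 4 were lower in replicate 2 in all 4 treatments and 0 were higher, with a median log2 difference of −0.35. Of all tested genes, 12.8% were lower in all 4 treatments and 11.1% higher. Pou5f1, the highest of the 6 markers, changed little, with a mean log2 difference of −0.054. The fibroblast markers were at or near 0 in both. The part of the JUN level or of the ESC markers in the replicate difference was not tested.

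None of the 5 genes was called in any of the 6 comparisons between treatments, for which limma on all 10222 genes had to give an adjusted p-value below 0.05 together with a change of 1.5-fold or more. Libraries of a replicate number deviated together, so a second fit took the replicate number as a block. Of all tested genes, P+B against DMSO called 4% without the block and 7.02% with it, and PFI-3 against DMSO called 0% in both fits. BI-9564 against DMSO called 0.108% and 1.53%, P+B against PFI-3 1.31% and 3.43%, P+B against BI-9564 0.196% and 0.802%, and BI-9564 against PFI-3 0.108% and 1.48%. Over the 30 tests of the 5 genes, the lowest adjusted p-value was 0.237 without the block and 0.0617 with it in limma. The unadjusted p-value was under 0.05 in 1 of the 30 tests without the block and in 9 with it. Over all tested genes the share with such a p-value without the block was 22.6% for P+B against DMSO, 6.79% for PFI-3 against DMSO, 14.9% for BI-9564 against DMSO, 16.6% for P+B against PFI-3, 7.97% for P+B against BI-9564 and 14.2% for BI-9564 against PFI-3. With the block these shares were, in the same order, 29.2%, 11.2%, 21.3%, 23.1%, 12.3% and 20.1%. The estimated change was at most 0.42 on the log2 scale in either direction. An exact permutation test of 2 libraries against 2 cannot go below p = 0.333. The comparisons share groups and are therefore not independent of each other.

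Dppa2 had its lowest values under P+B. Under DMSO it stood at 70 and 75 TPM (replicates 1 and 2), under PFI-3 at 81 and 71, under BI-9564 at 71 and 65 and under P+B at 63 and 60. The P+B libraries did not overlap with those of any other group. Such separation was found in 47.5% of all tested genes against DMSO, in 42.7% against PFI-3 and in 31.4% against BI-9564, so it is common in groups of 2. Against DMSO the fold was 0.851 (95% interval 0.712 to 1.02 in limma, adjusted p = 0.263), and with the replicate block the interval was 0.726 to 0.996 (adjusted p = 0.162). Against PFI-3 the fold was 0.813 (0.681 to 0.971, limma adjusted p = 0.237), and against BI-9564 it was 0.906 (0.759 to 1.08). PFI-3 alone gave 1.05 (0.876 to 1.25) and BI-9564 alone 0.938 (0.786 to 1.12) times the DMSO level. None of these intervals reached a fold of 1.5 in either direction.

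Dppa4, the partner of Dppa2, was close to the DMSO level in every group. Under DMSO it was at 85 and 77 TPM, under PFI-3 at 84 and 79, under BI-9564 at 75 and 82 and under P+B at 77 and 87. The fold against DMSO was 1.01 with PFI-3 (0.844 to 1.20), 0.970 with BI-9564 (0.813 to 1.16) and 1.01 with P+B (0.848 to 1.21), in limma without the block. In replicate 1 both libraries with BI-9564 lay below both without it, and in replicate 2 both lay above. The replicates thus gave opposite directions, and that difference was not tested. The share of all tested genes that separate this way within a replicate number was not counted, so nothing is read from the separation of Dppa4.

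Dppa5a had narrow intervals once the replicate number was a term. With DMSO it was at 2925 and 1925 TPM, and its fold with P+B was 0.931. The interval was 0.621 to 1.40 in limma without the block and 0.865 to 1.00 with it (adjusted p = 0.848 and 0.185). PFI-3 gave 1.06 (0.981 to 1.14 with the block) and BI-9564 gave 0.922 (0.856 to 0.993 with the block, limma adjusted p = 0.200). Set against PFI-3, the level was 0.881 times as high with P+B (0.819 to 0.949 with the block, limma adjusted p = 0.0617) and 0.872 times as high with BI-9564 (0.810 to 0.939, adjusted p = 0.0731). The difference of P+B from PFI-3 was −11.7% in replicate 1 and −12.1% in replicate 2.

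Fabp3 was higher with PFI-3 than with DMSO in both replicates, by 11.6% and 47.2%, and with P+B by 13.7% and 28.3%. The fold with PFI-3 was 1.28 (0.349 to 4.67 in limma without the block, adjusted p = 0.982). With the replicate block the interval was 1.09 to 1.5 (adjusted p = 0.269). For P+B the fold was 1.20 (0.329 to 4.41 without the block, 1.03 to 1.42 with it, limma adjusted p = 0.879 and 0.123). BI-9564 alone gave 0.983 (0.837 to 1.15 with the block). The direct comparison of BI-9564 with PFI-3 gave 0.770 (0.655 to 0.904 with the block, limma adjusted p = 0.0977), with differences of −16.5% and −29.5% within replicates.

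Dppa3 could hardly be compared between treatments without the block. The fold with P+B was 1.15, with an interval from 0.265 to 5.04, and 0.847 to 1.58 with the block. Within replicates, P+B and DMSO were both at 22 TPM in replicate 1 and at 7 and 5 TPM in replicate 2. PFI-3 gave 1.34 (0.983 to 1.83 with the block) and BI-9564 gave 1.17 (0.858 to 1.60 with the block), with limma adjusted p-values of 0.468 and 0.541.

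**Figure D3:**
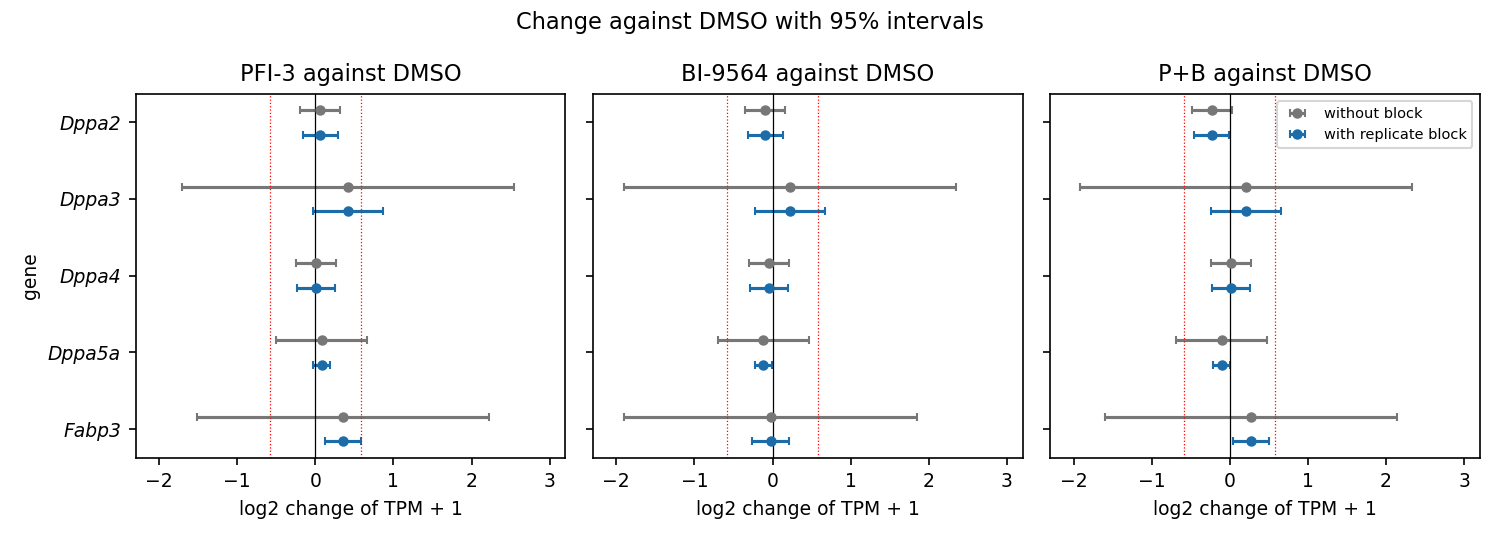
Change against DMSO in log2(TPM + 1) (horizontal axis) for each gene (vertical axis) in 3 comparisons, with 95% intervals from limma without a block (grey) and with the replicate number as a block (blue). Red dotted lines mark a fold of 1.5. The block narrows the intervals of Dppa3, Dppa5a and Fabp3 and changes those of Dppa2 and Dppa4 little. No gene passes the thresholds.

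PFI-3 and BI-9564 differ in the bromodomains they bind, and each was present in 2 of the 4 groups. After the values had been seen, the 4 libraries with a compound were therefore set against the 4 without it. With a dose not given, each compound may have been at a lower dose in P+B than alone. Fabp3 was at 143.5 TPM on average with PFI-3 and 118.75 TPM without it, a fold of 1.25 (1.12 to 1.4 with the replicate block, limma adjusted p = 0.0740). Both libraries with PFI-3 lay above both without it in each replicate number, at 212 and 216 against 190 and 177 TPM in replicate 1 and at 78 and 68 against 53 and 55 TPM in replicate 2. How many of all tested genes separate this way was not counted, so nothing is read from the separation. The difference of Fabp3 did not pass an adjusted p-value of 0.05 in limma. Calls over all genes were 0.323% without the block and 1.05% with it, and without the block the interval was 0.50 to 3.13 (limma adjusted p = 0.906).

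Dppa5a was at 2229 TPM on average with BI-9564 and 2482 TPM without it, a fold of 0.901 (0.855 to 0.95 with the replicate block, limma adjusted p = 0.0229). It was lower with BI-9564 in both replicate numbers, without overlap. The share of all tested genes that separate this way was not counted, so nothing is read from it. The p-value threshold was passed with the block, as by 14.8% of all tested genes, while the fold of 1.5 was not reached. At both thresholds 3.19% of genes were called without the block and 4.95% with it. Without the block the adjusted p-value was 0.651 in limma. Dppa2 was at 64.75 TPM with BI-9564 and 74.25 TPM without it, a fold of 0.874 (0.781 to 0.977 with the block, limma adjusted p = 0.100). For the other genes the intervals with the block held 1, namely 0.806 to 1.25 for Dppa3, 0.877 to 1.11 for Dppa4 and 0.859 to 1.08 for Fabp3 with BI-9564. With PFI-3 they ran from 0.871 to 1.09 for Dppa2, from 0.923 to 1.43 for Dppa3, from 0.911 to 1.15 for Dppa4 and from 0.981 to 1.09 for Dppa5a.

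**Figure D4:**
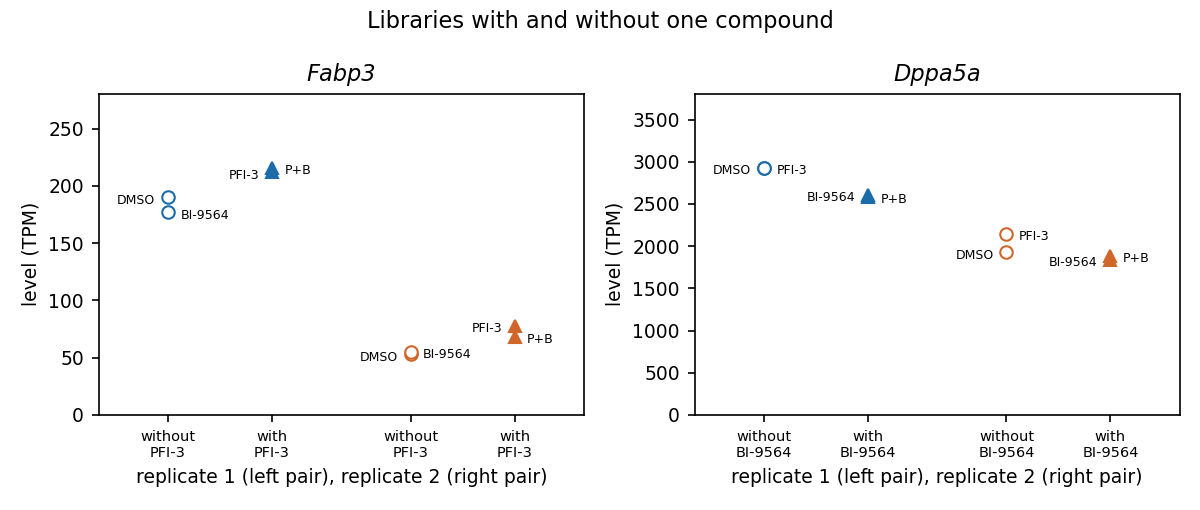
Level (TPM, vertical axis from 0) of Fabp3 in libraries without and with PFI-3 (left panel) and of Dppa5a in libraries without and with BI-9564 (right panel), as open circles and filled triangles, with replicate 1 in blue and replicate 2 in orange and each point named by its treatment. Within each replicate number the filled and open points do not overlap, and the gap between the replicate numbers is wider than the gap between treatments. How common such separation is among all tested genes was not counted.

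Genes that work with or resemble the 5 were taken from lists written from general knowledge. Counts of unadjusted p-values under 0.05 in these lists stand against 22.6% of all tested genes for P+B against DMSO. Counts of genes lower or higher in replicate 2 in all 4 treatments stand against 12.8% and 11.1% of all tested genes. With PFI-3 no listed gene was called in either fit, and with BI-9564 none without the block. Of all tested genes these called 0% and 0.108%, so nothing is read from the absence of calls. Among pluripotency factors, 19 of 20 were tested, and 2 were lower and 0 higher with P+B than with DMSO, where 2.72% of all tested genes were lower and 1.28% higher (4.1% and 2.93% with the block). The median log2 change of the 19 with P+B was −0.13, against 0.06 over all tested genes, and 7 had an unadjusted p-value under 0.05 in limma. Their median was 0.38 with PFI-3 and −0.24 with BI-9564, against 0.018 and 0.024 over all tested genes. The difference in sign between the compounds was not tested. Tdgf1, a co-receptor for NODAL, fell from 163 and 156 TPM to 82 and 84 TPM (log2 change −0.93, limma adjusted p = 0.00916). Gdf3, a TGF-β family ligand and the neighbour of Dppa3, fell from 97 and 92 TPM to 61 and 63 TPM (−0.60, limma adjusted p = 0.0312). With the replicate block, Esrrb (0.74) and Klf2 (1.03), both factors of naive pluripotency, were called higher as well. The block also called Tdgf1 (−0.86) and Gdf3 (−0.64) lower with BI-9564. Between the replicate numbers, 11 of the 19 were lower in replicate 2 in all 4 treatments and 1 was higher, Lin28a, with a median difference of −0.27. Nanog, the other neighbour of Dppa3, was at 71, 106, 59 and 68 TPM in replicate 1 and at 40, 57, 29 and 46 TPM in replicate 2, in the order DMSO, PFI-3, BI-9564 and P+B.

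Of 18 genes of the 2-cell-like state, 17 were in the table and 4 were tested, all of the Zscan4 family. They were higher in replicate 2 in all 4 treatments, with a median difference of 2.36, opposite in sign to that of Dppa3. Zscan4f was at 5 to 9 TPM in replicate 1 and at 31 to 41 TPM in replicate 2. The Zscan4 genes are near-identical copies of each other, so their single values are uncertain. In limma 0 of the 4 were called with P+B, and 0 had an unadjusted p-value under 0.05. Their median log2 change was 0.13.

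Of the 12 genes of the DNA methylation machinery, which include Uhrf1, all 12 were tested. With P+B against DMSO, 3 of the 12 had an unadjusted p-value under 0.05 in limma. Tet3, a dioxygenase that oxidizes methylated cytosine, was lower with P+B, at 9 and 11 TPM against 18 and 26 TPM (log2 change −1.05, limma adjusted p = 0.0426), and no other gene of the list was called with P+B, with a median change of −0.15. With BI-9564 and the block, Tet1, an enzyme of the same family, was called lower (log2 change −0.61, limma adjusted p = 0.0448). Uhrf1, the partner of DPPA3, was at 250 and 284 TPM with P+B and 284 and 316 TPM with DMSO (limma adjusted p = 0.404). The median replicate difference was 0.03, with 4 genes lower and 5 higher in replicate 2 in all treatments. Of 16 germline genes that DNA methylation is known to silence, 8 were tested and 0 were called with P+B in limma, with 1 at an unadjusted p-value under 0.05 and a median log2 change of 0.10. There, 7 of 8 were lower in replicate 2 in all 4 treatments, with a median difference of −0.51, among them Ddx4 with 16 to 18 TPM in replicate 1 and 5 to 11 TPM in replicate 2. With BI-9564 and the block, Tex19.1 was called higher (log2 change 0.60, limma adjusted p = 0.0260). Of 11 early germ cell genes, 8 were tested and 0 were called with P+B in limma, with 1 at an unadjusted p-value under 0.05 and a median log2 change of −0.06. Between the replicate numbers, 2 of these 8 were lower and 2 higher in replicate 2 in all 4 treatments, with a median difference of −0.13.

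The relatives of Dppa5a and Fabp3 gave fewer values. Of 8 KH domain and subcortical maternal complex genes, 3 were tested and 0 were called with P+B in limma, with 2 at an unadjusted p-value under 0.05 and a median log2 change of −0.45. With the block Khdc3 was lower, at 51 and 35 TPM with P+B against 69 and 61 TPM with DMSO (log2 change −0.61, limma adjusted p = 0.0157). Ooep, the neighbour of Dppa5a, was at 16 and 21 TPM with P+B against 26 and 25 TPM with DMSO (limma adjusted p = 0.213). Of 13 members of the intracellular lipid-binding protein family, which Fabp3 belongs to, 8 were at 0 in all libraries and 2 were tested, Fabp5 and Crabp1, both at 21 TPM or less. In limma 0 of the 2 were called with P+B and 0 had an unadjusted p-value under 0.05. Of 32 genes of fatty acid uptake and oxidation, 24 were tested and 0 were called with P+B in limma, with 8 at an unadjusted p-value under 0.05 and a median log2 change of 0.25. With the block Cpt1a, which brings fatty acids into mitochondria, and Etfdh were called higher (log2 changes 0.64 and 0.59). The median replicate difference of these 24 was −0.01, with 4 genes lower and 4 higher in replicate 2 in all treatments.

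**Figure D5:**
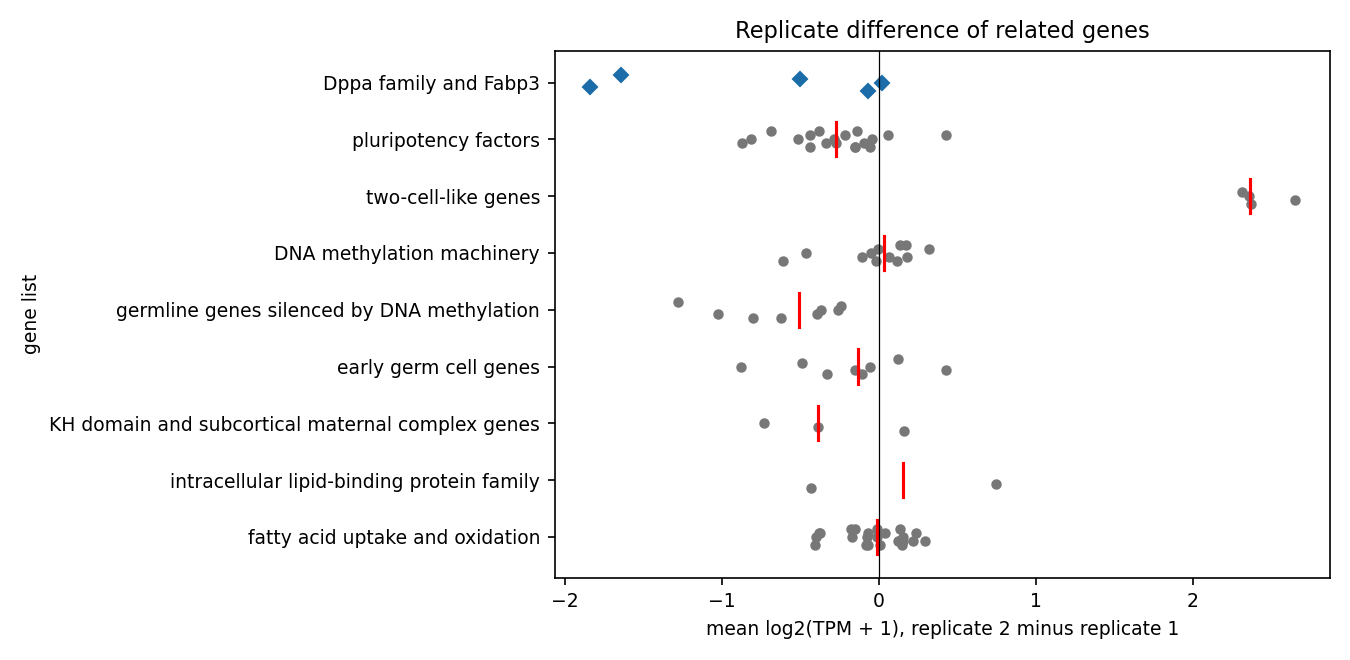
Mean difference in log2(TPM + 1), replicate 2 minus replicate 1 (horizontal axis), of the 5 genes (blue diamonds) and of each tested gene of the related lists (grey points, vertical axis by list), with the median of a list as a red line. The Zscan4 genes lie near 2.36, the germline genes to the left of 0, and the fatty acid genes around 0.

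The genes most like each of the 5 were named by Pearson's correlation over the 8 libraries on the log2 scale, as a description, since replicate number and treatment are shared by all genes. For Dppa3 these were Skp1a (r = 0.988), Acbd5 (0.986) and Hdac2 (0.985), and for Fabp3 Ckb (0.990), Gm20362 (0.986) and Skp1a (0.984). Skp1a was at 300 to 315 TPM in replicate 1 and 237 to 254 TPM in replicate 2, a far smaller gap than that of Dppa3. For Dppa5a they were AA467197 (0.974), Limk2 (0.973) and Asna1 (0.966). For Dppa2 they were Plekhj1 (0.970), Tmx2 (0.965) and Myo18a (0.95), and for Dppa4 Nckap1 (0.911), Zc3h15 (0.900) and Thoc3 (0.898). Among the 5 genes, Dppa3 and Fabp3 had r = 0.982, Dppa5a and Fabp3 0.960, and Dppa3 and Dppa5a 0.95. After the mean of each replicate number was removed these became 0.556, 0.515 and 0.341. Dppa2 and Dppa4, which work as a pair, had r = −0.18 over the 8 libraries and −0.152 after that step.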

How the data were processed

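RNA was isolated with TRIzol, made into libraries with a VAHTS mRNA-seq kit and sequenced on a NextSeq500. Per the labels, the submitters' processing notes name bcl2fastq, Bowtie2 2.2.5, RSEM 1.3.0 and mm10, and the study used DESeq2 for its own tests. The authors deposited 1 table of 50600 rows whose score is TPM turned into whole numbers. In 94 rows the name repeated that of an earlier row, in 27 it was a date, and 33075 rows were at 0 throughout. No counts were used, so count models were not run. The 8 columns were matched to the samples by name.

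Values were analysed on the scale of log2(value + 1), on which changes of low genes look smaller, with limma 3.58.1 in R 4.3.3 (trend on the mean). All 4 groups were fitted together on 10222 genes with a mean of at least 5. Each comparison had its own Benjamini-Hochberg adjustment over all tested genes. Calls needed 1.5-fold or more beside an adjusted p-value below 0.05. Intervals are at 95%. Same-numbered libraries deviated together, with Pearson's r across genes of 0.143 to 0.236 over 6 pairs of groups. The replicate numbers of the labels were therefore taken to pair the samples, and the blocked fit is given beside the unblocked fit. The procedure was tested on simulated data.

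The 5 genes, the lists and the tests were chosen with earlier results of these data known. Named genes are the 5, for each of them the 3 tested genes with the highest correlation, up to 3 genes of each list (those called with P+B, otherwise the highest) and the nearest protein-coding gene on each side. Genes of lists that only the blocked fit called, and Ddx4, Lin28a and Nanog, were named after their values were seen. A gene of the lists is not reported here. Positions are from GENCODE M21 and copies from blastn 2.17.0. Alternatives were pseudocounts of 0.5 or 5, a minimum mean of 1 or 20 or no minimum, quantile normalization, median centring, no trend, a fit of the 4 compared libraries, no fold threshold, an adjusted p-value under 0.01 and leaving out each library.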

Additional observations from a re-analysis of the deposited data

How the results depend on the processing

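In each of the 6 comparisons none of the 5 genes was called under any alternative that kept 2 libraries a group. Their lowest adjusted p-value in limma under these was 0.0617. Of all genes, P+B against DMSO called 718 of 10222 with the block and 201 of 17525 with no minimum mean. The fit of the 4 compared libraries called 0 of 10222 genes in every comparison. At the 1.5-fold threshold, PFI-3 against DMSO called 0 genes in all of these alternatives. Where no gene at all is called, none of the 5 can be, so nothing is read from those runs. A minimum mean of 20 left Dppa3 untested. The replicate block could not change an estimate, since each group held 1 library of each replicate number. P+B against DMSO gave −0.23 for Dppa2, 0.21 for Dppa3, 0.02 for Dppa4, −0.10 for Dppa5a and 0.27 for Fabp3 in both fits. The block changed no call of the 5 genes but changed their p-values. In limma 9 of 30 unadjusted p-values were under 0.05 with it and 1 without. Median centring turned the sign of Dppa4 with P+B (−0.077), with PFI-3 (−0.037) and for P+B against PFI-3 (−0.039), and of Dppa5a for P+B against BI-9564 (−0.031). Quantile normalization turned that of Fabp3 with BI-9564 (0.012). Leaving out a library moved the log2 changes without the block, since its group then held a single replicate number. The lone library was assumed to vary like the other groups. For P+B against DMSO they were −0.28 to −0.18 for Dppa2, −0.76 to 1.18 for Dppa3, −0.070 to 0.10 for Dppa4, −0.40 to 0.20 for Dppa5a and −0.64 to 1.18 for Fabp3. For PFI-3 against DMSO they were −0.029 to 0.16 for Dppa2, −0.55 to 1.40 for Dppa3, −0.061 to 0.080 for Dppa4, −0.22 to 0.38 for Dppa5a and −0.56 to 1.26 for Fabp3. For BI-9564 against DMSO they were −0.15 to −0.029 for Dppa2, −0.75 to 1.20 for Dppa3, −0.11 to 0.026 for Dppa4, −0.42 to 0.18 for Dppa5a and −0.94 to 0.89 for Fabp3. For P+B against PFI-3 they were −0.39 to −0.20 for Dppa2, −1.19 to 0.76 for Dppa3, −0.080 to 0.094 for Dppa4, −0.41 to 0.046 for Dppa5a and −0.91 to 0.74 for Fabp3. For P+B against BI-9564 they were −0.20 to −0.079 for Dppa2, −0.99 to 0.95 for Dppa3, −0.026 to 0.15 for Dppa4, −0.24 to 0.27 for Dppa5a and −0.54 to 1.13 for Fabp3. For BI-9564 against PFI-3 they were −0.25 to −0.063 for Dppa2, −1.17 to 0.78 for Dppa3, −0.12 to 0.0094 for Dppa4, −0.45 to 0.056 for Dppa5a and −1.21 to 0.46 for Fabp3. The direction of Dppa2 held in all of these except for PFI-3 against DMSO, and those of the other 4 genes turned in every comparison. In such a fit the difference between replicate numbers enters the change. That difference was −1.84 for Dppa3, −1.64 for Fabp3 and −0.50 for Dppa5a, against treatment changes of at most 0.42 in size. For these genes the turns therefore say nothing about the direction of a treatment change. With 2 libraries a group and depth unknown, a gene that was not called may still have changed, by any amount within its printed interval.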
